A study of Homo sapiens with 4 samples.

Results

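The 9p21 locus around CDKN2A was examined by RNA-seq in Daoy, a human medulloblastoma cell line, through 7 genes chosen by symbol among the 58174 genes listed: KLHL9, IFNE, MTAP, CDKN2A, CDKN2B-AS1, CDKN2B and DMRTA1. The libraries fell into EED-knockout cells (2 libraries) and wild type cells (2 libraries), and both groups are the same cell line with no treatment given in the labels. The labels name neither the method of the knockout nor the culture or clone behind each library, so the replicate spread behind a p-value may be purely technical. The question asked of the comparison is whether loss of EED, the subunit with which Polycomb repressive complex 2 (PRC2) reads and extends its histone mark, goes with a different level of these genes. The genes were chosen with their levels in these libraries known, to show which of them had no reads, so the levels are a description and carry no test, while differences between genotypes were tested.

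The locus holds 2 kinds of tumour suppressor and the genes around them. CDKN2A encodes p16INK4a and, from a separate first exon and in another reading frame, p14ARF, and CDKN2B encodes p15INK4b. The INK4 proteins bind CDK4 and CDK6 and keep the retinoblastoma protein active, while ARF binds and inhibits the ubiquitin ligase MDM2. PRC2 and PRC1 silence the locus in proliferating cells, its loss is frequent in human tumours, and MTAP, which lies beside CDKN2A, is often lost with it. In RNA an absent gene and a silent gene cannot be told apart, since neither gives reads, and in bulk libraries fewer cells with a transcript cannot be told apart from less of it per cell.

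The start regions listed in RefSeq for the cell cycle inhibitors without counts and for MTAP are shown. They run from 250 bases before to 50 bases after the listed start (GRCh38.p14). CG dinucleotides, the sites of DNA methylation in CpG islands, are in capitals. The first is the more upstream CDKN2A start listed (chr9:21995275-21995574, minus strand), in which CDKN2A-006 begins. It lies upstream of the ARF messenger CDKN2A-004, whose first base (21994624) is in neither CDKN2A window. The second is at the p16 first exon of CDKN2A (chr9:21974808-21975107, minus strand). The p16 messenger CDKN2A-001 begins at 21975098, near the upstream end of that window, so most of the window lies downstream of its first base. The third is at CDKN2B (chr9:22009256-22009555, minus strand) and the fourth at MTAP (chr9:21802386-21802685, plus strand).
CDKN2A, upstream start: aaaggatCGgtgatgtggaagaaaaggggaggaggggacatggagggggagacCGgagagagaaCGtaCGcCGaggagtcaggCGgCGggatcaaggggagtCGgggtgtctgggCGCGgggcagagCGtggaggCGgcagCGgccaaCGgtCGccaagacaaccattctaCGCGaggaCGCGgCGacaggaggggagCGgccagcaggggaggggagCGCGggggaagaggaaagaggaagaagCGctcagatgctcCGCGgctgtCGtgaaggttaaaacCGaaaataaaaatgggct
CDKN2A, p16 start: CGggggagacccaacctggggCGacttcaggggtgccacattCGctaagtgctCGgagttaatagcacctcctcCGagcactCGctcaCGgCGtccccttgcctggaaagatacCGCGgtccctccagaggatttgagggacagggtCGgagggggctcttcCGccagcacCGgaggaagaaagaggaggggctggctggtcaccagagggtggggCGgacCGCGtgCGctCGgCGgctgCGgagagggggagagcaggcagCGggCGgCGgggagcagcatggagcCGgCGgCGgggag
CDKN2B: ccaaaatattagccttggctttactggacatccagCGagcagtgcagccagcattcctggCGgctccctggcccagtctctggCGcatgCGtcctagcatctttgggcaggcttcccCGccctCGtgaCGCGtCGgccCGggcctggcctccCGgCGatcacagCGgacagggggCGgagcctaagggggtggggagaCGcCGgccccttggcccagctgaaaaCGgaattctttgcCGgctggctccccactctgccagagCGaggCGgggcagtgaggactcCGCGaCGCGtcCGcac
MTAP: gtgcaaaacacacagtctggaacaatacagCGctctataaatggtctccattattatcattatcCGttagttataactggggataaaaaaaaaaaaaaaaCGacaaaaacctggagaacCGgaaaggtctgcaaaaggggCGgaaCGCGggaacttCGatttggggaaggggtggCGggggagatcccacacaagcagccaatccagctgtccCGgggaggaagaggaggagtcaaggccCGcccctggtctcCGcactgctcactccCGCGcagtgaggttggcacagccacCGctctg
The 300 bases held 28 CG at the upstream start of CDKN2A, 26 at the p16 start, 25 at CDKN2B and 15 at MTAP. The windows of the other genes held 36 CG at CDKN2B-AS1, 19 at KLHL9, 16 at DMRTA1 and 2 at IFNE. The median over all 35116 windows of this length was 14, and 26.2% of them held at least as many CG as the upstream start of CDKN2A. The GC box GGGCGG, searched on both strands, was present in 5 of the 8 windows of the locus (p16 start, CDKN2B, CDKN2B-AS1, MTAP and DMRTA1) and in 44.95% of all windows. DNA methylation and chromatin marks were not measured here.

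The libraries held 19022736 and 18164045 estimated counts in EED-knockout cells and 19106382 and 17836112 in wild type cells, and 3 counts in a library came to between 0.157 and 0.168 CPM (count scaled by library total). EED itself had 340 and 490 counts in EED-knockout libraries, against 626 and 500 in wild type libraries, and its log2 fold change of -0.49 missed the threshold of 0.05 in the quasi-likelihood test of edgeR (adjusted p = 0.878). Both EED-knockout libraries lay below both wild type libraries, as in 18% of all genes tested, with EED-knockout 2 close to wild type 2, and protein was not measured. Of 11 markers of the granule cell lineage and hedgehog medulloblastoma, 10 had counts in every library, among them ZIC1, ZIC2, PAX6 and SOX2, while ATOH1 was at 0. Some of the 10 had few counts: BARHL1 had 1 to 8 per library and GLI1 had 5 to 28. Among markers of other cells, the 4 mesenchymal genes summed to 4452 and 4189 TPM (transcript abundance per length, scaled to a fixed total) in EED-knockout libraries and 3842 and 4057 TPM in wild type libraries. The 3 epithelial genes summed to 50.3 and 131 TPM in EED-knockout libraries and 59.3 and 138 TPM in wild type libraries. Nearly all of this sum was KRT8, with 49.2 and 130 TPM in EED-knockout libraries and 58.8 and 137 TPM in wild type libraries. EPCAM and CDH1 were far lower in every library. The 4 blood genes summed to 38.6 and 28.1 TPM in EED-knockout libraries and 19.6 and 49.6 TPM in wild type libraries, and no glial, neuronal or endothelial list exceeded 5.89 TPM in any library. None of these markers of other cells was at 0 throughout, though HBB had counts only in EED-knockout 1 (2 counts). Their part in the values of the locus was not tested.

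No estimated count was assigned to CDKN2A, CDKN2B, DMRTA1 or IFNE in any EED-knockout or wild type library. The remaining 3 genes had few counts: MTAP had 29.1 to 37.2 per library, KLHL9 had 10 to 20 and CDKN2B-AS1 had 5.28 to 19.9. Among all 19762 protein-coding genes, 9.01% had 0 counts in all 4 libraries. The 7 genes have 50 listed transcripts, of which 42 had 0 counts throughout and 8 had some. Of all 199324 transcripts listed, 132671 had a rounded count above 0 in some library.

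**Figure D1:**
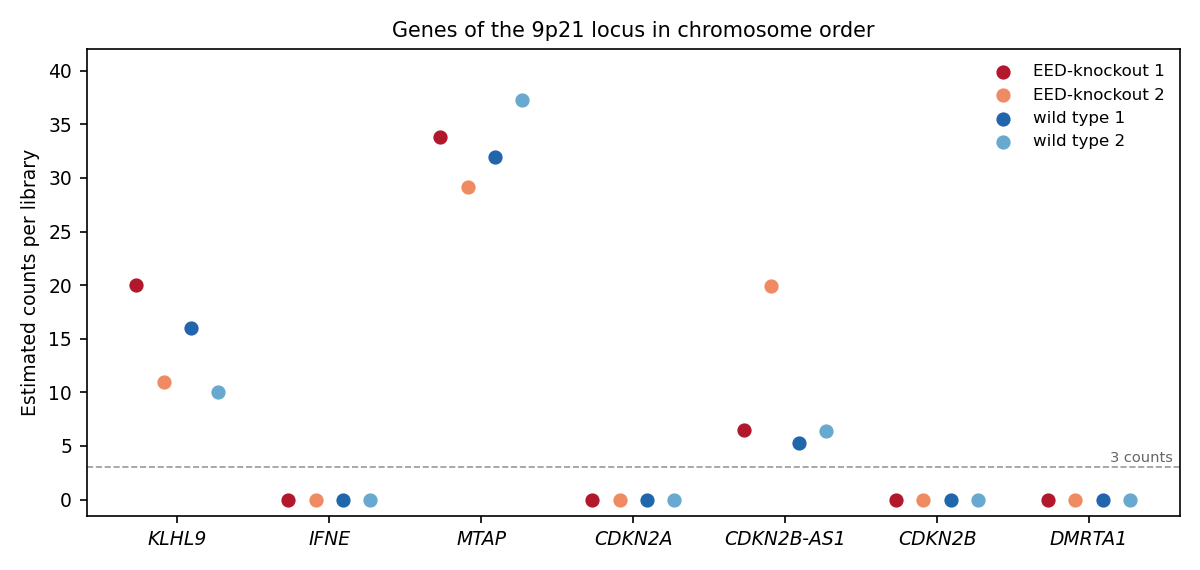
Estimated counts (vertical axis) of each gene of the locus, in chromosome order, with 1 point per library and EED-knockout libraries left of wild type libraries. CDKN2A, CDKN2B, DMRTA1 and IFNE sit at 0 in all 4 libraries, below the dashed line at 3 counts, while MTAP lies between 29.1 and 37.2.

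CDKN2A (ENSG00000147889; chromosome 9, 21967753 to 21995301, minus strand, GRCh38) had 0 counts in each of its 14 transcripts, in EED-knockout 1 and 2 and in wild type 1 and 2. This held for CDKN2A-001, the p16INK4a messenger, and for CDKN2A-004, an ARF messenger, which start at the separate first exons. With 3 counts taken as the limit that a count of 0 allows, the level of CDKN2A-001 was at most 0.231 and 0.235 TPM in EED-knockout libraries and 0.216 and 0.237 TPM in wild type libraries, for counting error only. Over all 4 libraries, 74129275 counts, the same limit was 0.0405 CPM. Of the 4474 different 31-base words in CDKN2A transcripts, 91.4% occurred in no other gene of GENCODE 29. A further 314 words lie in CDKN2B-AS1, whose start overlaps CDKN2A on the opposite strand, and 70 in the paralog CDKN2B.

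CDKN2B (ENSG00000147883; chromosome 9, 22002903 to 22009363, minus strand) likewise had 0 counts in each of its 3 transcripts and in all 4 libraries, with 98.0% of its words found in no other gene. Its long transcript CDKN2B-001 could have reached at most 0.0599 and 0.0608 TPM in EED-knockout libraries and 0.0569 and 0.0625 TPM in wild type libraries. No expression of CDKN2A or CDKN2B was detected in either genotype, within limits that depend on transcript length. The TPM limits given hold for CDKN2A-001 and CDKN2B-001. In shorter transcripts, such as CDKN2B-002 (859 bases), 3 counts stand for more TPM. The other INK4 genes lie elsewhere in the genome and were expressed. CDKN2C, which encodes p18INK4c, had 41.2 and 41.9 TPM in EED-knockout libraries, against 20.1 and 30.7 TPM in wild type libraries. CDKN2D, which encodes p19INK4d, had 10.8 and 15.2 TPM in EED-knockout libraries, against 6.19 and 7.19 TPM in wild type libraries. For both genes the knockout values lay above the wild type values, as they did in 17.8% of the 18349 genes tested. The log2 fold changes of 0.64 for CDKN2C and 0.89 for CDKN2D missed edgeR's threshold (adjusted p = 0.808 for each).

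CDKN2B-AS1 (ENSG00000240498; chromosome 9, 21994778 to 22121097, plus strand), the long noncoding RNA ANRIL, runs antisense across CDKN2B and has been described as a binding partner of Polycomb proteins. It had 6.50 and 19.9 estimated counts in EED-knockout libraries, against 5.28 and 6.38 in wild type libraries. EED-knockout 2 stood apart, whereas EED-knockout 1 was level with wild type cells. The gene did not pass the filter on low counts. Without a filter its log2 fold change was 1.22 (95% interval -0.66 to 3.10), which did not pass edgeR's test (adjusted p = 0.842). Of its 17 transcripts, 3 had any count, and CDKN2B-AS1-006 held 76.0% of the gene's counts over the 4 libraries. That transcript had 5.36 and 14.9 counts in EED-knockout libraries and 4.28 and 4.38 in wild type libraries. Of its words, 26.3% occurred in other genes within 5 Mb and 5.64% in genes elsewhere, so part of its few counts is uncertain. The files do not state whether strand was used, and without it reads of overlapping genes on opposite strands cannot be told apart.

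MTAP (ENSG00000099810; chromosome 9, 21802543 to 21937651, plus strand) encodes methylthioadenosine phosphorylase, which recycles the by-product of polyamine synthesis into the methionine salvage pathway. It had 33.8 and 29.1 counts in EED-knockout libraries, against 32.0 and 37.2 in wild type libraries, and in counts the genotypes overlapped. On the TPM scale, which takes transcript length into account, it averaged 0.512 ± 0.0463 TPM in EED-knockout cells and 0.437 ± 0.0326 TPM in wild type cells (SD, n = 2 each). On this scale both EED-knockout libraries (0.545 and 0.479 TPM) lay above both wild type libraries (0.414 and 0.460 TPM). In log2 CPM 17.8% of the 18349 genes tested lay that way, and the share in TPM was not counted. The order in TPM rests partly on few counts in shorter transcripts. In EED-knockout 2, 1 count of MTAP-013 gave 0.159 TPM. MTAP-010 gave 0.226 TPM in EED-knockout 1 and 0.115 TPM in wild type 1. The level of MTAP was low, as 26.2% of protein-coding genes had a lower mean. In counts the log2 fold change was -0.19 (95% interval -1.27 to 0.89), which did not pass edgeR's test (adjusted p = 0.976). Of the 2 genes of the locus that could be tested, MTAP and KLHL9, edgeR called 0, as it called 0% of all genes, and DESeq2 also called neither, against 0.4% of genes. With counts rebuilt from TPM the sign turned round, to 0.14 (adjusted p = 0.993).

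The counts of MTAP were uneven between its 13 transcripts, of which 9 had none. MTAP-008 had 21.7 and 27.1 counts in EED-knockout libraries, against 25.6 and 25.2 in wild type libraries, and held 75.4% of the gene's counts. It and KLHL9-001 were the transcripts of the locus that could be tested, and neither reached an unadjusted p of 0.05 in edgeR's test, against 4.64% of all transcripts. The last exon of MTAP-008 (chromosome 9, 21931008 to 21937651) makes up 6644 of its 7557 bases. MTAP-001 had 6.04 and 1.00 counts in EED-knockout libraries, against 3.01 and 12.0 in wild type libraries, and its last exon of 5103 bases (21861976 to 21867078) is 83.4% of the transcript. MTAP-010, a single exon that overlaps the last exon of MTAP-008, had 6.12 and 0 counts in EED-knockout libraries and 3.35 and 0 in wild type libraries. Of the words of MTAP-008, 7.11% also occurred in genes outside the neighbourhood and 7.57% in other genes within it. Words of MTAP occurred in 6443 other genes in all, and whether its counts arose from reads of such genes was not tested. Positions of reads within a transcript are not recorded, so it cannot be said whether the exons that encode the enzyme were covered.

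**Figure D2:**
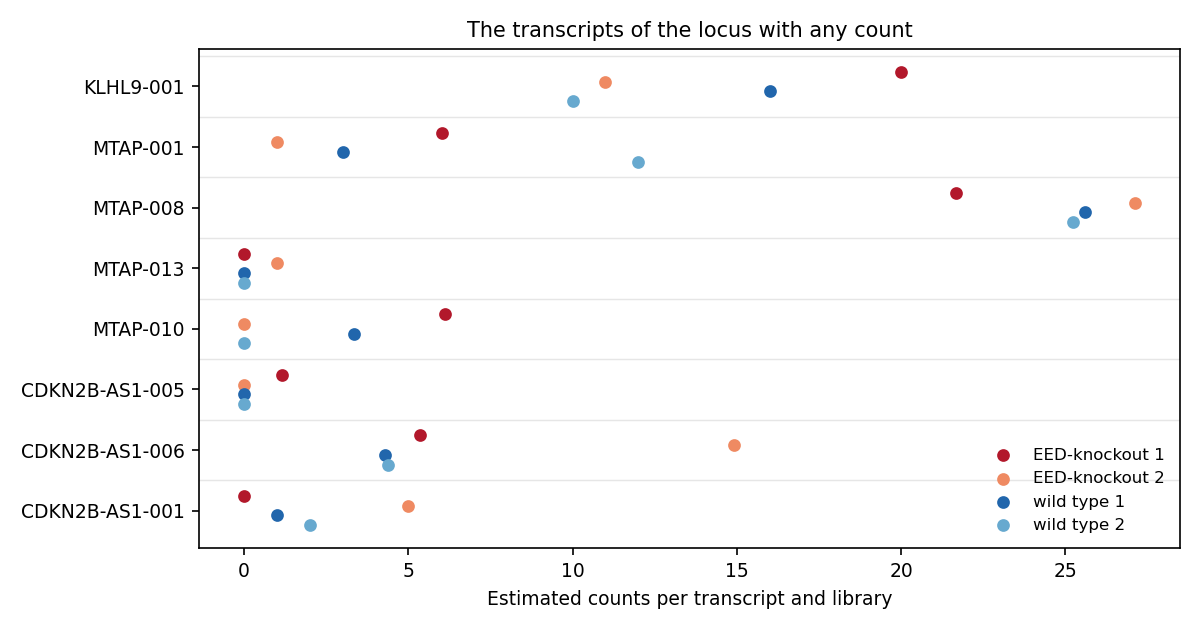
Estimated counts per library (horizontal axis) of the 8 transcripts of the locus that had any count, with EED-knockout points above wild type points in each row. MTAP-008 lies between 21.7 and 27.1 in all 4 libraries, and CDKN2B-AS1-006 has 14.9 counts in EED-knockout 2 against 4.28 to 5.36 in the others.

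KLHL9 (ENSG00000198642; chromosome 9, 21329671 to 21335380, minus strand) encodes a substrate adaptor that works with KLHL13 and cullin 3 in a ubiquitin ligase acting on Aurora B in mitosis. It is a single exon of 5710 bases among the interferon genes. It had 20 and 11 counts in EED-knockout libraries, against 16 and 10 in wild type libraries, so the genotypes overlapped. Its log2 fold change was 0.19 (95% interval -1.32 to 1.71), which did not pass edgeR's test (adjusted p = 0.985). KLHL9 averaged 0.232 ± 0.0906 TPM in EED-knockout cells and 0.189 ± 0.0465 TPM in wild type cells (SD, n = 2 each), a level above that of 20.8% of protein-coding genes. Its words were found in no other gene in 98.9% of cases, and 31 of the 62 shared words lay in KLHL13. In the order of mean TPM, CDKN2B-AS1 (0.571), MTAP (0.474) and KLHL9 (0.211) were followed by the 4 genes at 0. The first place of CDKN2B-AS1 rests on EED-knockout 2 alone, since MTAP was the higher of the pair in the other 3 libraries. The ranges of CDKN2B-AS1 (0.250 to 1.30 TPM) and MTAP (0.414 to 0.545 TPM) overlapped, as did those of CDKN2B-AS1 and KLHL9 (0.156 to 0.297 TPM), whereas MTAP was above KLHL9 in every library.

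IFNE (ENSG00000184995; chromosome 9, 21480839 to 21482313, minus strand), an epithelial type I interferon of the female reproductive tract, and DMRTA1 (ENSG00000176399; chromosome 9, 22446841 to 22455740, plus strand), a transcription factor with a DM domain, each have a single transcript and had 0 counts in all 4 libraries. The limits were 0.182 and 0.184 TPM in EED-knockout libraries and 0.171 and 0.187 TPM in wild type libraries for IFNE. For DMRTA1 they were 0.0411 and 0.0417 TPM in EED-knockout libraries and 0.0391 and 0.0430 TPM in wild type libraries. Among the 19 type I interferon and receptor genes, 16 were at 0 throughout, IFNB1 included, and the receptor gene IFNAR1 had 37.2 ± 4.19 TPM in EED-knockout cells and 41.5 ± 3.03 TPM in wild type cells (SD, n = 2 each). Of the 8 DMRT genes, DMRTA1 and DMRTB1 were at 0, while DMRTA2 had 16.1 ± 1.83 TPM in EED-knockout cells and 13.0 ± 0.136 TPM in wild type cells, and DMRT2 had 8.31 ± 1.12 and 8.98 ± 0.0706 TPM in the same order (SD, n = 2 each). Of the 3 DMRT genes and the 2 interferon and receptor genes that passed the filter, edgeR called 0 and found 0 at an unadjusted p under 0.05 (median log2 fold changes of 0.27 and -0.35).

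The neighbours of CDKN2A were counted within 5 Mb on either side, and the rest of the chromosome was not counted. Of 41 protein-coding genes there, 22 (53.7%) had no count in any library, against 9.01% of all protein-coding genes. Among the 22 are CDKN2A, CDKN2B, DMRTA1 and IFNE, which were chosen with their levels known. Interferon genes, which are silent in most unstimulated cells, made up 15 of the 22. Without the interferon genes, 7 of 25 had no count, with CDKN2A, CDKN2B and DMRTA1 among the 7. On the side of MTAP, the nearest gene with at least 100 counts in every library was FOCAD, which had 123 and 164 counts in EED-knockout libraries and 119 and 108 in wild type libraries, and MLLT3 beyond it had 209 and 231 in EED-knockout libraries and 187 and 172 in wild type libraries. On the side of CDKN2B the nearest such gene was CAAP1, with 239 and 410 counts in EED-knockout libraries and 356 and 280 in wild type libraries. Between FOCAD and CAAP1, over 5.84 Mb, lie 26 protein-coding genes, of which 21 had no count and 5 had some: HACD4, IFNW1, KLHL9, MTAP and ELAVL2. The 21 include the 15 interferon genes without counts and CDKN2A, CDKN2B and DMRTA1. Since FOCAD and CAAP1 were taken as the nearest genes above the limit of 100 counts, low counts between them follow from that choice. MTAP, with 37.2 counts in wild type 2, was the highest of them in any library. HACD4 had 20.1 and 7.13 counts in EED-knockout libraries against 13.0 and 15.2 in wild type libraries, IFNW1 had 0 to 2 per library, and ELAVL2, a neuronal RNA-binding protein, had 1 count in EED-knockout 2 and 0 in the others. Of 16 genes of the neighbourhood that passed the filter, MTAP and KLHL9 included, edgeR called 0, and at an unadjusted p under 0.05 it found 1 higher and 0 lower. Over all 18349 genes edgeR called 0, with 1082 at an unadjusted p under 0.05.

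**Figure D3:**
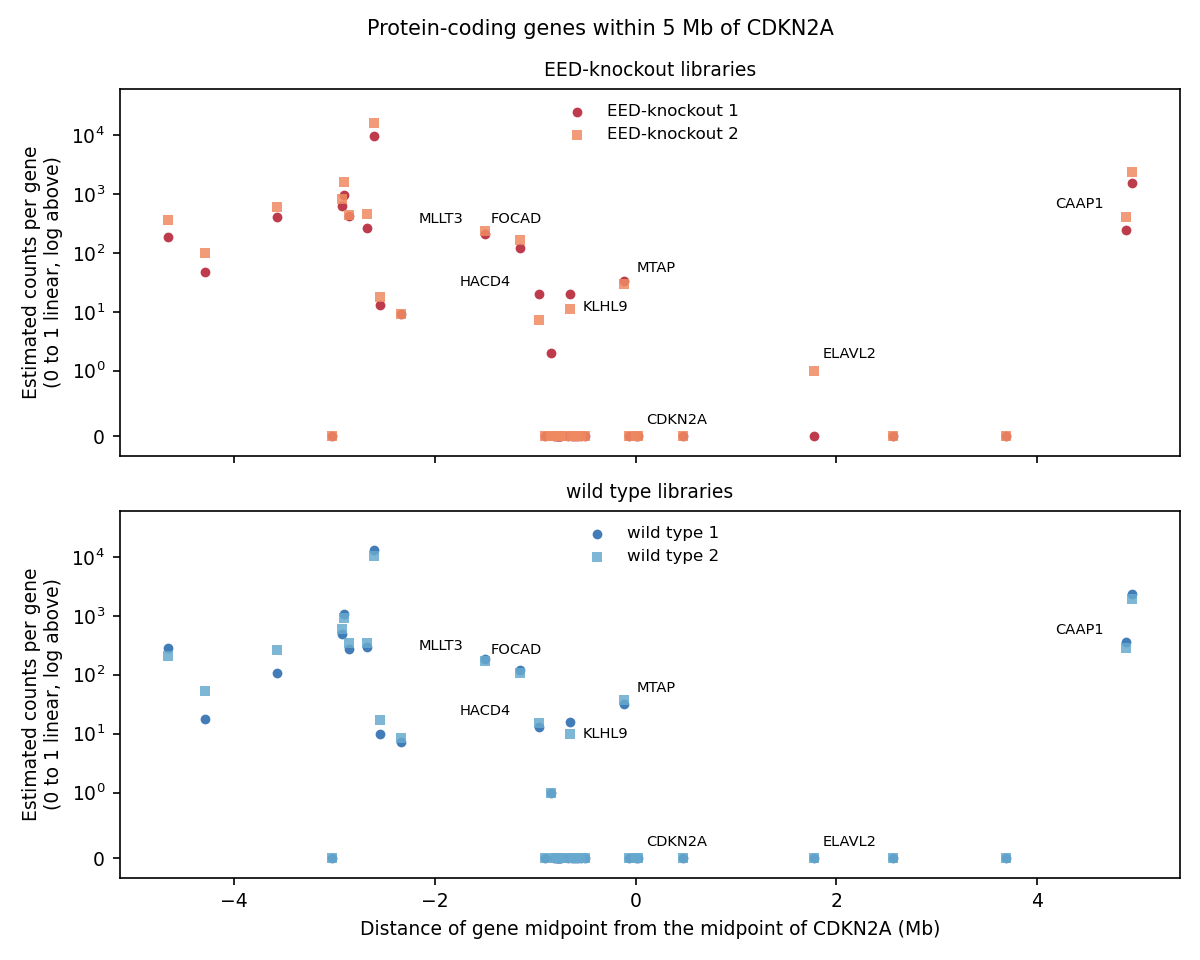
Estimated counts per library of the protein-coding genes within 5 Mb of CDKN2A (vertical axis, linear from 0 to 1 and logarithmic above) against the distance of each gene's midpoint from that of CDKN2A in Mb, with EED-knockout libraries in the upper panel and wild type libraries in the lower. Genes at 0 lie along the bottom of both panels on either side of CDKN2A, and the next genes above 100 counts in every library are FOCAD on the left and CAAP1 on the right.

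The genes on which the products of the locus act were expressed in both genotypes. CDK4, the main target of p16INK4a, had 277 ± 37.5 TPM in EED-knockout cells and 262 ± 4.81 TPM in wild type cells (SD, n = 2 each). CDK6 had 29.3 ± 4.60 and 26.6 ± 1.02 TPM, CCND1 (cyclin D1) 158 ± 17.3 and 176 ± 16.8 TPM, and RB1 32.5 ± 4.09 and 29.1 ± 0.243 TPM, EED-knockout before wild type. Of the 21 genes of the INK4 and RB arm, edgeR called 0, and at an unadjusted p under 0.05, which 5.9% of all genes reached, it found CDKN2C, CDKN2D and E2F1 higher and 0 lower. The median log2 fold change of the arm was 0.04, against 0.01 over all genes tested.

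In the ARF arm, MDM2 had 24.6 and 29.3 TPM in EED-knockout libraries and 31.4 and 27.8 TPM in wild type libraries. CDKN1A, which encodes the CDK inhibitor p21, had 63.3 ± 12.0 TPM in EED-knockout cells and 86.4 ± 3.91 TPM in wild type cells (SD, n = 2 each). Of the 22 genes of this arm edgeR called 0 (median log2 fold change -0.02). At an unadjusted p under 0.05, which 5.9% of all genes reached, it found PMAIP1 and CCNG1 lower and 0 higher. PMAIP1 had 61.2 and 83.9 TPM in EED-knockout libraries, against 112 and 134 TPM in wild type libraries, and CCNG1 had 57.9 and 55.7 TPM in EED-knockout libraries, against 108 and 89.3 TPM in wild type libraries (adjusted p = 0.799 for each by edgeR). The groups did not overlap in either gene, as in 18% of all genes in that direction.

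The other enzymes of methionine salvage stood far above MTAP. MRI1, which takes the product of MTAP further, had 23.7 and 38.4 TPM in EED-knockout libraries and 23.6 and 26.2 TPM in wild type libraries. PRMT5, the methyltransferase that methylthioadenosine inhibits, had 154 ± 9.89 and 145 ± 5.77 TPM, and MAT2A, which makes its methyl donor, 215 ± 8.76 and 231 ± 22.8 TPM, EED-knockout before wild type. Of the 16 genes of methionine salvage, polyamines and the PRMT5 complex, edgeR called 0 (median log2 fold change -0.11). At an unadjusted p under 0.05, which 5.9% of all genes reached, it found ODC1 higher and MAT2B lower. ODC1 had 319 and 189 TPM in EED-knockout libraries, against 141 and 149 TPM in wild type libraries. MAT2B had 59.8 and 67.5 TPM in EED-knockout libraries, against 97.3 and 80.0 TPM in wild type libraries. KLHL13, the partner of KLHL9, had 5.64 ± 1.09 TPM in EED-knockout cells and 4.91 ± 0.819 TPM in wild type cells, and CUL3 had 63.1 ± 0.288 TPM in EED-knockout cells and 55.0 ± 11.6 TPM in wild type cells (SD, n = 2 each). None of the 5 cullin 3 genes or of the 9 Polycomb and demethylase genes known to act at the locus was called or reached an unadjusted p of 0.05 in edgeR's test (median log2 fold changes of 0.01 and -0.03). Among the Polycomb genes, BMI1 had 72.0 ± 6.65 TPM in EED-knockout cells and 71.1 ± 15.8 TPM in wild type cells, and CBX7 had 4.89 ± 0.799 and 4.71 ± 0.447 TPM in the same order (SD, n = 2 each).

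**Figure D4:**
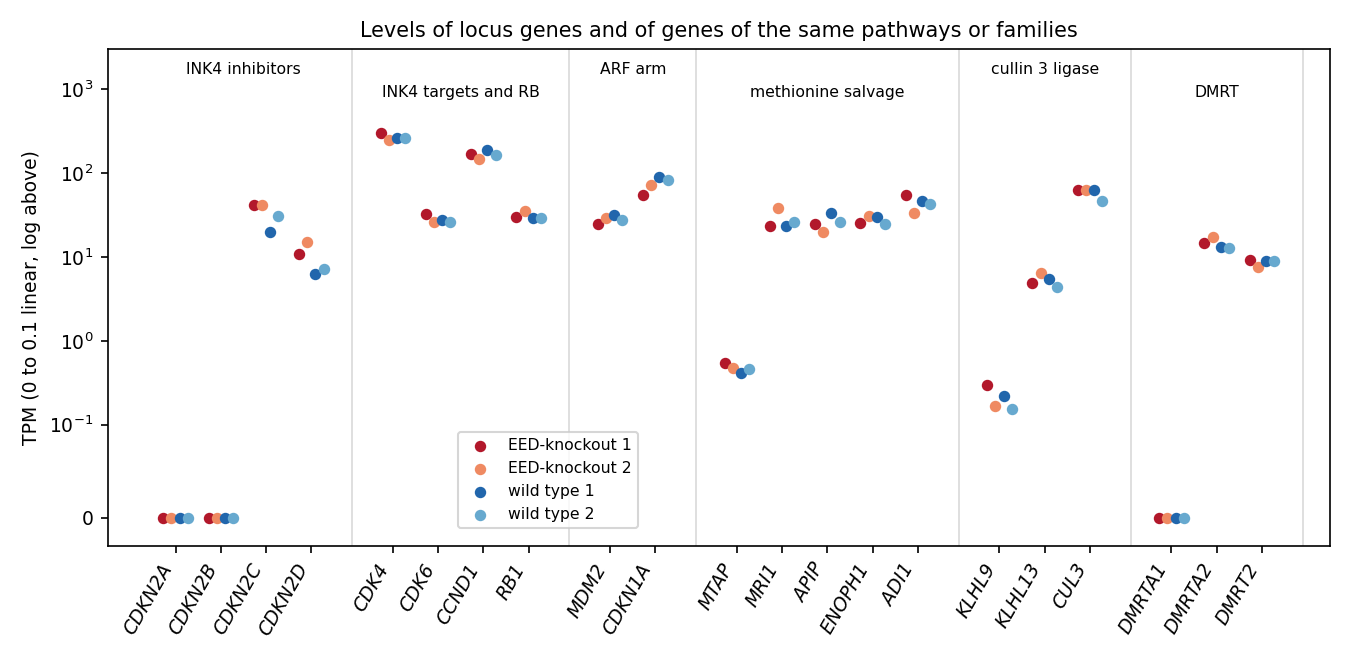
Level in TPM (vertical axis, linear from 0 to 0.1 and logarithmic above) of genes of the locus and of genes of the same pathway or family, with 1 point per library and EED-knockout libraries left of wild type libraries. CDKN2A, CDKN2B and DMRTA1 lie at 0 and MTAP and KLHL9 below 1 TPM, while the other genes plotted lie between 4.33 and 304 TPM.

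In their pattern over the 4 libraries, the protein-coding genes most like MTAP were TNKS, SERAC1 and FAM189A1, whose centred log2 CPM differed from that of MTAP by a root mean square of 0.016 to 0.017 among 12664 genes compared. For KLHL9 they were PHYHIPL (0.018), ZNF581 (0.067) and ZNF43 (0.070). With 4 libraries and so few counts behind each profile, this is a description of likeness only.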

How the data were processed

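RNA-seq of total RNA was measured in 2 EED-knockout and 2 wild type libraries of Daoy cells. The deposited estimated counts per transcript were made with kallisto 0.43.1 and the build hg38, per the submitters' processing notes, and the deposited TPM values are kallisto's abundances divided by effective length, per the file headers; the deposited lengths and effective lengths are in bases. Which GENCODE release and which run settings were used is not stated. All 50 transcripts of the locus have the same identifier and length in GENCODE 29 (GRCh38), which supplied positions for 57836 genes; 98.5% of all transcripts did.

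Gene counts are rounded sums of the estimated counts of a gene's transcripts. EED-knockout was set over wild type in edgeR 4.0.16 (R 4.3.3), by its quasi-likelihood F test (TMM factors, filterByExpr with minimum count 10 and minimum total 15, no covariate, two-sided), with Benjamini-Hochberg adjustment over all 18349 genes and a threshold of 0.05. Transcripts (56858) were tested the same way. Intervals are 95% intervals of that fit. Depth of 17836112 to 19106382 counts sets the limit for a gene at 0, taken as 3 counts; floors cover counting error only. Whether words of 31 bases recur in other genes was counted on both strands of GENCODE 29 transcripts. The median of gene fold changes was 0.01. Members and gene lists were chosen with earlier results of these data known. Genes to be named were the 7 members, the protein-coding genes within 5 Mb of CDKN2A, 20 fixed genes of the lists (1 of them is not reported here) and list genes past the threshold; genes named for an unadjusted p under 0.05 (CDKN2D, E2F1, PMAIP1, CCNG1, ODC1, MAT2B), DMRTB1, TEK and LINC01239, and the other salvage genes plotted (APIP, ENOPH1, ADI1), were chosen after their values were seen. Likeness was taken over protein-coding genes with mean log2 CPM above 1, for members with at least 10 counts in every library. Alternatives were DESeq2 1.42.0, limma 3.58.1 on log2(TPM + 1) and log2(TPM + 0.1), RLE factors, no filter, replicate blocks, counts rebuilt from TPM and leaving out each library.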

Additional observations from a re-analysis of the deposited data

How the results depend on the processing

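The 4 members without counts stayed 4 under every rule tried and without any library. In the neighbourhood, 22 protein-coding genes without counts became 24 with fewer than 3 counts per library as the rule. They became 22 to 23 with a library left out, and 19 within 2 Mb, where fewer genes enter. With genes of every biotype, 90 of 130 had no count, against 38.5% of all 58174 genes. Against 0 genes called by edgeR, with 1082 at an unadjusted p under 0.05, DESeq2 called 79 (0.4% of genes with an adjusted p); with a library left out edgeR called 0 to 23, with 23 without EED-knockout 1, 19 without wild type 2 and 0 without either of the others, and the cause was not tested. For transcripts edgeR called 0 in the main fit, without a filter and with the replicate block, with 2636 (4.64%) in the main fit at an unadjusted p under 0.05. DESeq2, limma, RLE factors and counts rebuilt from TPM were not used for transcripts. No list gene was called under the alternatives, DESeq2 included, and 11 of 84 list medians moved by more than the spread between libraries.

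The log2 fold change of MTAP, -0.19, was 0.14 with counts rebuilt from TPM, 0.073 with log2(TPM + 1) and 0.19 with log2(TPM + 0.1), and -0.29 to -0.08 with a library left out. That of KLHL9, 0.19, ranged from -0.28 (without EED-knockout 1) to 0.56 (without wild type 1) and was -0.11 without wild type 2; for KLHL9-001 these were -0.29 to 0.57, and -0.13 without wild type 2. MTAP-008, at -0.12, ranged from -0.29 to 0.033 (without EED-knockout 1). The smallest adjusted p of either gene over 12 alternatives was 0.734. With 1 library left in a genotype, its spread was taken to equal that of the other genotype.

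Deviations of same-numbered libraries correlated at -0.14, which gave no sign of pairing by number. With 2 libraries per genotype this correlation cannot settle whether libraries are paired. With the replicate block edgeR called 0 genes and 0 transcripts, with log2 fold changes of -0.19 for MTAP and 0.18 for KLHL9, and it called 0 genes with the crossed pairing, added after seeing the data. At an unadjusted p under 0.05 edgeR found 768 genes with the replicate block and 1607 with the crossed pairing, against 1082 without a block. The smallest adjusted p of edgeR with the crossed pairing was 0.0565.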

Other observations

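On the short arm of chromosome 9, TEK and LINC01239 were singled out after their values were seen. TEK, the angiopoietin receptor (27109141 to 27230175), had 286 and 1 counts in EED-knockout libraries, against 193 and 204 in wild type libraries, so that EED-knockout 2 stood apart from the other libraries. Its log2 fold change of -0.53 did not pass edgeR's test (adjusted p = 0.977). LINC01239 (22646200 to 22824213) is a noncoding gene between DMRTA1 and ELAVL2. It lies between FOCAD and CAAP1, where only protein-coding genes were described above. Its counts were 15 and 31.2 in EED-knockout libraries, against 13 and 31.1 in wild type libraries, and the genotypes overlapped.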
